A study of Mus musculus with 2 samples.

Results

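Transport and uptake genes of the proximal tubule (PT) were examined as a set of 38 genes, of 31053 genes in the count tables of kidney cells from MRL-*lpr* mice. The set was named by function and matched by gene symbol, and all 38 were found. It holds carriers of phosphate, glucose and monocarboxylates, amino acids, bicarbonate and protons, sulfate and dicarboxylates, and organic anions and cations, with the water channel *Aqp1*, the endocytic receptors *Lrp2* and *Cubn* and the lipid flippase *Atp11a*. The scRNA-seq data had 1 library of pooled kidneys from old and 1 from young MRL-*lpr* mice (MRL/MpJ-Fas lpr), which carry a defect in the death receptor gene Fas and develop a lupus-like nephritis with age. The labels give no treatment, and in the study's methods the young group was the control or mildly diseased group and the old group the severely diseased one. The preparation was meant for innate lymphoid cells, by density gradient, magnetic enrichment and live-cell sorting, so PT cells were carried along rather than sought, and their share of a library is not their share of the kidney. With 1 library per age, no replicate checked any difference, no p-value was computed, and all intervals cover counting error only.

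PT cells were taken as barcodes with a unique molecular identifier (UMI) of at least 3 of the 5 members *Lrp2*, *Slc34a1*, *Cubn*, *Slc22a6* and *Slc27a2* and none of the leukocyte gene *Ptprc*. This gave 6299 of 11429 young cells (55.1%, median 14847 UMIs) and 3442 of 10232 old cells (33.6%, median 15454.5 UMIs). Members made up 1.40% of the UMIs of young and 1.22% of those of old tubule cells, with a median of 208 and 185 member UMIs per cell. A choice by 8 metabolic genes outside the set (among them *Miox*, *Fbp1*, *Khk* and *Dpys*, with 5 needed) took 6802 young and 3562 old cells, and 6156 and 3387 cells met both rules. *Kap*, an androgen-regulated gene typical of mouse PT, had 49572 and 38055 counts per 1000000 UMIs (CPM) in tubule cells, and 2173 and 643 CPM in leukocytes with fewer than 3 of the 5 genes. The 5 leukocyte genes *Laptm5*, *Cd53*, *Coro1a*, *Rac2* and *Lcp1* summed to 12.5 and 15.0 CPM in tubule cells, and 26 barcodes were shared between the libraries. The study's methods name female mice and the labels give no sex, yet both libraries held cells of both kinds: 779 young and 551 old tubule cells had UMIs of *Xist* and none of *Ddx3y*, *Eif2s3y*, *Kdm5d* or *Uty*, and 3511 and 1701 had UMIs of these Y-linked genes and none of *Xist*. The rest had both (164 and 75) or neither (1845 and 1115). Values are given for all tubule cells and, for some members and for the counts of members, for each of the first 2 kinds alone.

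The PT takes back most of what the glomerulus filters. Its early, convoluted part carries the bulk of glucose, amino acid, phosphate and bicarbonate uptake and endocytosis of filtered protein, while its late, straight part reclaims what remains and secretes organic anions and cations. In rodents many organic anion carriers also differ between the sexes under the control of androgens.

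*Slc34a1*, the main phosphate carrier of the brush border, was the most abundant member, with 3849 and 2785 CPM. The fatty acid carrier and acyl-CoA ligase *Slc27a2* followed with 1279 and 1289 CPM, then, in an order that differed between the libraries, the endocytic receptor *Lrp2* (megalin) with 949 and 803 CPM and the basolateral sodium bicarbonate carrier *Slc4a4* with 899 and 834 CPM. *Abcc4*, an export pump for organic anions and cyclic nucleotides, was the least abundant with 12.4 and 19.8 CPM, and the next were the proton exchanger *Slc9a3* in the young library (26.9 CPM) and the phosphate carrier *Slc34a3* in the old one (30.4 CPM). These are counts of transcript ends, 1 per molecule, and do not scale with gene length. The levels thus spanned more than 2 orders of magnitude, and most members lay between about 100 and 500 CPM in both libraries. *Slc34a1*, *Slc27a2* and *Lrp2* were among the genes used to choose the tubule cells, so their levels follow in part from the choice. The 646 young and 175 old cells that met only the rule by metabolic genes are not in these levels. The part of the choice in the ranking was not tested.

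**Figure D1:**
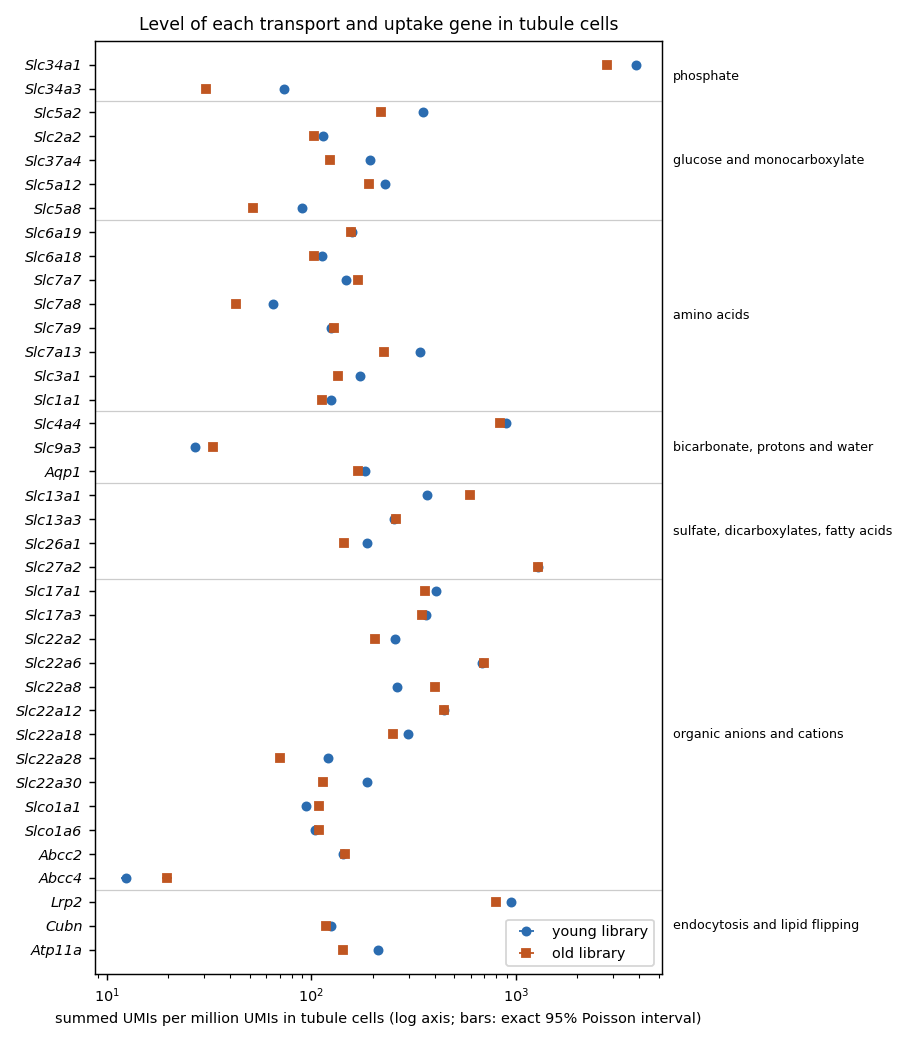
Level in CPM (log axis) of each member in tubule cells of the young (circles) and old library (squares), ordered by role, with exact 95% Poisson intervals that are mostly narrower than the symbols. *Slc34a1*, which is among the genes used to choose the cells, stands highest at 3849 and 2785 CPM and *Abcc4* lowest at 12.4 and 19.8 CPM.

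To compare the ages, the level of each member in old tubule cells was divided by that in young ones, and all ratios below are on the log2 scale. Members of phosphate and glucose handling were lower in the old library, whereas a sulfate carrier and a pair of organic anion carriers were higher, and 28 members lay within 1.5 times. Those higher by over 1.5 times were *Slc13a1*, *Slc22a8* and *Abcc4*, 3 of 38, where 6.22% of 12435 genes with at least 100 UMIs passed the same limit. Those lower by over 1.5 times were *Slc34a3*, *Slc5a2*, *Slc37a4*, *Slc5a8*, *Slc7a8*, *Slc22a28* and *Slc22a30*, 7 of 38, against 6.59% of all genes. The median log2 ratio of the members was -0.14, beside 0.0051 for all genes tested. *Slc7a13* (-0.58) and *Atp11a* (-0.56) lay just within the limit. The old library had more late-scored cells (39.6% against 29.9%, by the score described next) and more cells with *Xist* (16.01% against 12.37%), and its tubule cells carried less of the 4 hemoglobin genes (607 CPM young, 24.7 CPM old) and more of 5 genes of injured tubule, *Havcr1*, *Lcn2*, *Krt20*, *Sox9* and *Vcam1* (summed 4.85 and 36.3 CPM). *Vcam1* alone went from 0.991 to 22.4 CPM, whereas *Krt20* went from 0.268 to 0.190 CPM (30 and 12 UMIs). The part of these shifts in the member ratios was not tested, apart from the values within early, late, *Xist* and Y-linked cells given below.

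**Figure D2:**
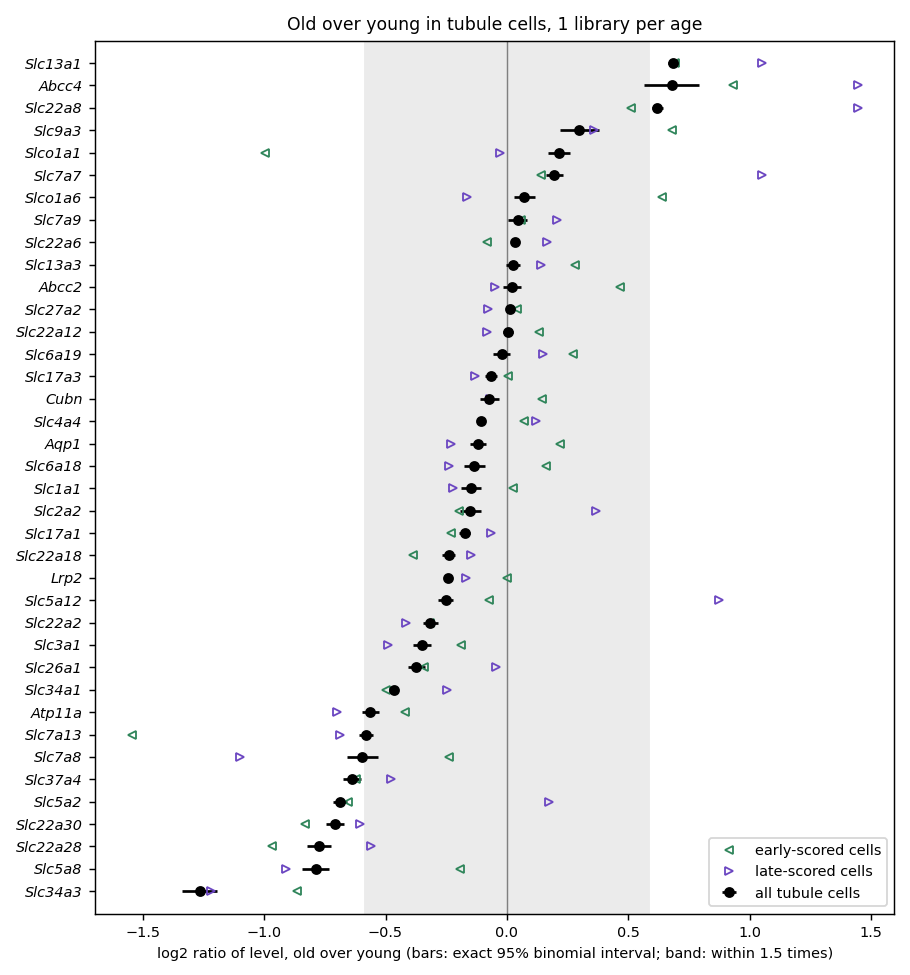
Log2 ratio of each member's level, old over young, in all tubule cells (filled circles, with exact 95% binomial intervals) and in early-scored and late-scored cells (open triangles); the band marks ratios within 1.5 times. *Slc34a3* lies lowest at -1.26 and *Slc13a1* highest at 0.68 among the filled circles. *Slc5a2*, *Slc5a12* and *Slco1a6* are among the members that have triangles on both sides of 0.

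Position along the tubule was read from genes outside the set. Each tubule cell was given a score, the mean scaled level of 8 late genes (*Aadat*, *Napsa*, *Ghr*, *Rnf24*, *Serpina1f*, *Ggt1*, *Cyp7b1* and *Acsm3*) minus that of 3 early genes (*Gatm*, *Spp2* and *Adra1a*), and the cells of both libraries were cut by this score into 3 equal ranges called early, middle and late. These are ranges and not cell types, and 726 young and 345 old cells lay within 0.2 of the lower limit. Early-scored cells numbered 2240 young and 1007 old, and late-scored cells 1883 and 1364, with median depths from 13683 to 17786 UMIs. Of 38 members, 9 were higher by over 2 times in late cells of both libraries, where 2.58% of 10390 genes were, and 13 were lower, where 12.5% were. The remaining 16 did not pass in both. All genes had a median log2 ratio of -0.32 in the young and -0.32 in the old library, and the members of -0.33 and -0.32. When the score was cut into sixths, 32 of 38 members peaked in the same sixth in both libraries, 17 of them in the earliest and 12 in the latest.

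**Figure D3:**
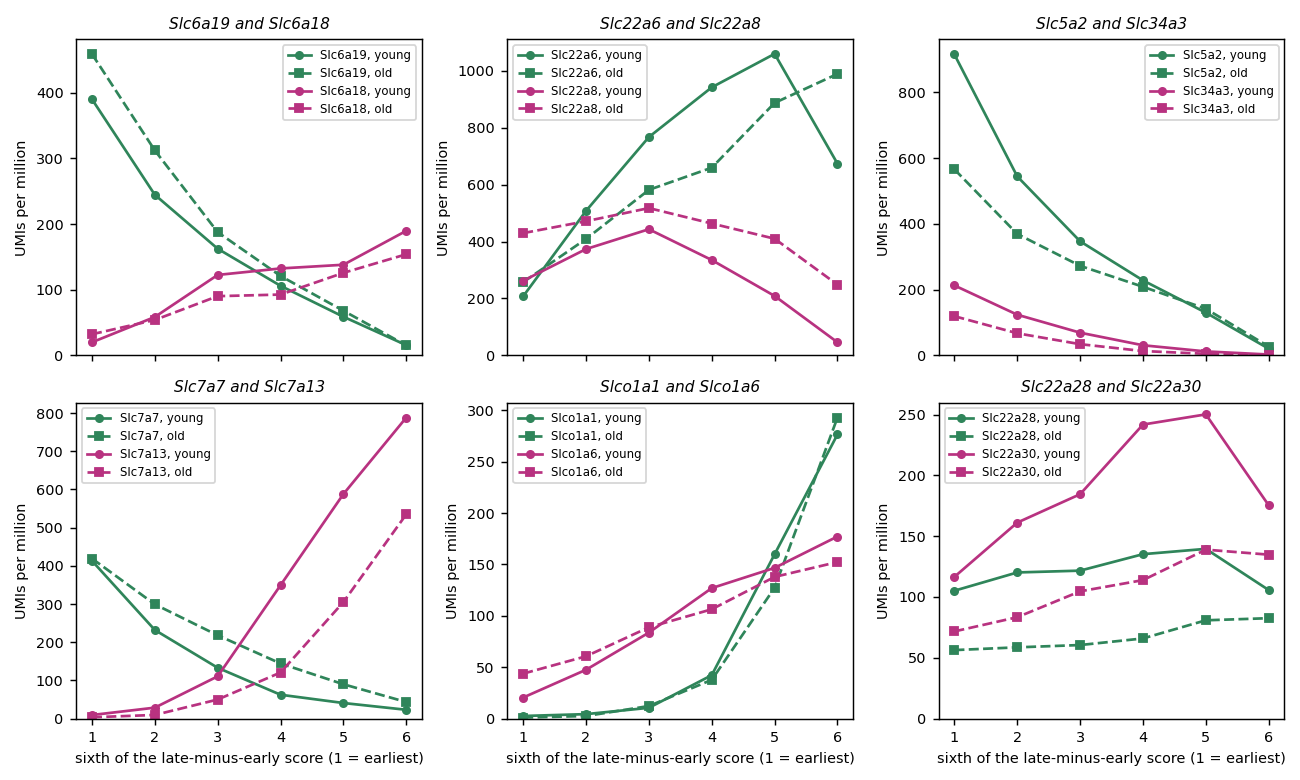
Level in CPM of 12 members over sixths of the late-minus-early score, from earliest (1) to latest (6), in the young (solid lines, circles) and old library (dashed lines, squares). *Slc6a19* descends from 390.3 CPM in the first young sixth to 15.6 CPM in the last while its neighbor *Slc6a18* ascends from 19.9 to 189.8 CPM, and *Slc22a28* and *Slc22a30* vary by less than 2.5 times over the sixths of 1 library.

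Both phosphate carriers had lower levels in the old library, *Slc34a3* by over 1.5 times. *Slc34a1* (sodium phosphate cotransporter IIa; chromosome 13, 55398187–55415592, plus strand, mm10) had 3849 CPM (95% interval 3838–3861) in the young library and 2785 CPM (2773–2799) in the old one, a log2 ratio of -0.47 (95% interval -0.47 to -0.46). *Slc34a3*, another sodium phosphate cotransporter of the brush border (chromosome 2, 25228898–25234364, minus strand), had 73.1 CPM (71.5–74.7) and 30.4 CPM (29.1–31.8), a ratio of -1.26 (95% interval -1.34 to -1.19) and the lowest of all members. It stayed lower in early cells (-0.86), late cells (-1.22), cells with *Xist* (-0.80) and cells with Y-linked UMIs (-1.46). The 2 carriers differed in position. *Slc34a1* was spread along the tubule, with a late over early ratio of -0.55 in the young and -0.29 in the old library, and *Slc34a3* was found mostly in early cells, with 170.0 and 93.5 CPM there and 6.68 and 2.87 CPM in late cells.

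Of the 5 carriers of glucose and monocarboxylates, 3 were lower by over 1.5 times in the old library and none was higher. *Slc5a2*, the sodium glucose cotransporter of the early tubule known as SGLT2, had 353 and 219 CPM in the young and old library, a ratio of -0.69 (95% interval -0.72 to -0.66). *Slc37a4*, the glucose-6-phosphate translocase that serves the last step of glucose release, went from 192 to 124 CPM (-0.64, 95% interval -0.67 to -0.60), and *Slc5a8*, a sodium-coupled monocarboxylate carrier, from 90.0 to 52.1 CPM (-0.79, 95% interval -0.85 to -0.73). The other 2 lay within 1.5 times, the basolateral glucose carrier *Slc2a2* (GLUT2; 114 and 103 CPM) and the lactate carrier *Slc5a12* (228 and 191 CPM). The 2 monocarboxylate carriers sat at opposite ends of the tubule. *Slc5a12* had 512 and 486 CPM in early and 14.7 and 26.9 CPM in late cells, whereas *Slc5a8* had 8.84 and 7.72 CPM in early and 168 and 89.5 CPM in late cells. *Slc5a2* and *Slc2a2* were early genes, with late over early ratios of -3.44 in the young and -2.61 in the old library and of -1.86 in the young and -1.29 in the old library, and *Slc37a4* varied little (-0.62 in the young and -0.48 in the old library). The lower level of *Slc5a2* in the old library was seen in early cells (-0.65; 737 to 469 CPM) and not in late cells (0.17), where its level was under 80 CPM in both libraries.

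Amino acid carriers were divided between the ends of the tubule. *Slc6a19*, the sodium-coupled carrier of neutral amino acids (B0AT1), had 321 and 387 CPM in early and 34.5 and 38.2 CPM in late cells. *Slc6a18* (B0AT3), which lies 1721 bases from it on chromosome 13 with no protein-coding gene between, went the other way, with 38.4 and 42.9 CPM in early and 167 and 142 CPM in late cells. The basolateral exchangers *Slc7a7* (y+LAT1) and *Slc7a8* (LAT2) were early genes, with ratios of -3.41 in the young and -2.50 in the old library and of -5.03 in the young and -5.89 in the old library. *Slc7a13* (AGT1; chromosome 4, 19818725–19842218, plus strand), an aspartate and glutamate carrier of the late tubule, had 18.4 and 6.31 CPM in early and 701 and 435 CPM in late cells, the second-largest ratio of the set after *Slco1a1* in both libraries. The subunits of the cystine carrier had unlike patterns. The light chain *Slc7a9* was lower in late cells (-1.09 in the young and -0.95 in the old library), and the heavy chain *Slc3a1*, which also pairs with *Slc7a13*, was higher there by less than 2 times (0.60 in the young and 0.30 in the old library). *Slc1a1*, a glutamate carrier, was nearly level along the tubule (-0.11 in the young and -0.36 in the old library).

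Between the ages, 1 of the 8 amino acid carriers passed the limit. It was *Slc7a8*, with 65.0 and 43.0 CPM in the young and old library (-0.60, 95% interval -0.66 to -0.53), with -1.17 in cells with Y-linked UMIs and -0.14 in cells with *Xist*. Early-scored cells had 167 and 142 CPM of it (-0.24), and late-scored ones 5.12 and 2.39 CPM. Of the cells with Y-linked UMIs, 32.5% of young and 18.1% of old ones were early-scored. Those early-scored cells had 157 and 114 CPM of *Slc7a8*, within 1.5 times. The part of this shift in the ratios was not tested. *Slc7a13* went from 339 to 227 CPM and *Slc3a1* from 173 to 135 CPM. *Slc6a19* (158 and 156 CPM), *Slc6a18* (113 and 103 CPM), *Slc7a9* (125 and 128 CPM), *Slc7a7* (148 and 169 CPM) and *Slc1a1* (125 and 113 CPM) differed by less than 1.2 times.

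None of the 3 genes of bicarbonate, proton and water transport passed the limit between ages. *Slc4a4* (NBCe1) had 899 and 834 CPM, *Slc9a3*, the sodium proton exchanger NHE3, 26.9 and 33.1 CPM, and *Aqp1* 184 and 169 CPM. *Slc4a4* and *Slc9a3* were early genes in both libraries, with ratios of -1.60 in the young and -1.55 in the old library and of -1.58 in the young and -1.90 in the old library. *Aqp1* was about level along the tubule (0.32 in the young and -0.13 in the old library). *Slc9a3* in early cells was 39.6 CPM young and 63.5 CPM old, a ratio of 0.68 (95% interval 0.56 to 0.80).

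Of the 4 carriers of sulfate, dicarboxylates and fatty acids, *Slc13a1*, the sodium sulfate cotransporter of the brush border (chromosome 6, 24088283–24168092, minus strand), was higher in the old library and had the highest ratio of the set. It had 369 CPM (95% interval 366–373) in the young library and 594 CPM (588–599.6) in the old one, a log2 ratio of 0.68 (95% interval 0.66 to 0.71). The ratio was 0.69 in early and 1.05 in late cells, and 0.74 in cells with Y-linked UMIs and 0.49 in those with *Xist*, where it lay within 1.5 times. *Slc26a1*, the sulfate exchanger of the basolateral side, went the other way without passing the limit (186 and 144 CPM; -0.37, 95% interval -0.41 to -0.34). The dicarboxylate carrier *Slc13a3* (254 and 258 CPM) and *Slc27a2* (1279 and 1289 CPM) were nearly equal between the ages. *Slc27a2* was a late gene (1.34 in the young and 1.22 in the old library).

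The 13 carriers of organic anions and cations held 2 members higher and 2 lower in the old library. *Slc22a8* (OAT3), a basolateral organic anion exchanger, had 262 CPM (259–265) in the young library and 402 CPM (397–407) in the old one, a ratio of 0.62 (95% interval 0.60 to 0.64). Its neighbor *Slc22a6* (OAT1), which lies 6203 bases downstream on chromosome 19 and carries much the same substrates, had 684 and 701 CPM and was nearly equal between the ages (0.035, 95% interval 0.018 to 0.051). The pair also differed in position. *Slc22a6* had 351 and 332 CPM in early, 857 and 622 CPM in middle and 842 and 944 CPM in late cells. *Slc22a8* peaked in sixth 3 of the score in both libraries. It had 315 and 450.1 CPM in early, 387 and 489 CPM in middle and 117 and 319 CPM in late cells. In late cells *Slc22a8* was therefore 2.72 times as high in the old as in the young library, and in early cells 1.43 times. In cells with *Xist* the age ratio was 0.14 and in cells with Y-linked UMIs 0.81. All 8 late genes of the score were themselves lower in old than in young late-scored cells, from *Ggt1* (1157 and 1028 CPM) to *Serpina1f* (47.4 and 1.42 CPM), so the late cells of the libraries were not alike, and the part of this in the late ratios was not tested.

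*Slc22a28* and *Slc22a30*, rodent members of the organic anion carrier family, were both lower in the old library. *Slc22a28* had 120.2 and 70.4 CPM in the young and old library (-0.77, 95% interval -0.82 to -0.72), and *Slc22a30* had 187 and 114 CPM (-0.71, 95% interval -0.75 to -0.67). They were lower in early cells (-0.97 and -0.83) and in late cells (-0.56 and -0.61). Of the 2240 young and 1007 old early-scored cells, 1142 and 308 had Y-linked UMIs and no *Xist*. In these, *Slc22a28* had 149 and 108 CPM and *Slc22a30* 191 and 169 CPM, both within 1.5 times between the ages. Late-scored cells with Y-linked UMIs had 127 and 82.9 CPM and 228 and 145 CPM in the same order. The part of the kinds of cells in these ratios was not tested. In cells with *Xist* the ratio of *Slc22a28* was -0.31, within 1.5 times, and that of *Slc22a30* -0.75. Unlike most members they varied little along the tubule, with late over early ratios of 0.10 in the young and 0.51 in the old library for *Slc22a28* and 0.59 in the young and 0.82 in the old library for *Slc22a30*. Within old cells with Y-linked UMIs these late over early ratios were -0.38 and -0.23. The genes lie on the minus strand of chromosome 19 with 203388 bases and 1 protein-coding gene between them. In the last 500 bases of *Slc22a28* transcripts, 27.6% of the stretches of 91 bases also occur in *Slc22a30*. Reads from these stretches match both genes, so the counts of *Slc22a28* are uncertain to that extent.

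The 250 bases before the start of each are shown because the 2 genes had ratios of the same sign between the ages and between the kinds of cells described later, and the windows are nearly the same sequence (chr19:8131983-8132232 for *Slc22a28* and chr19:8405106-8405355 for *Slc22a30*, minus strand, GRCm38.p6, RefSeq, C57BL/6J reference). Of 244 aligned bases, 6 differed, and counted with gaps the windows were 93.0% identical over 256 columns. The capitals mark the bases that differ or have no counterpart in the other window. The windows of *Slc22a6* and *Slc22a8* aligned with 51.5% identity, gaps counted, and those of *Slc22a6* and *Slc22a28* with 48.6%.
*Slc22a28*: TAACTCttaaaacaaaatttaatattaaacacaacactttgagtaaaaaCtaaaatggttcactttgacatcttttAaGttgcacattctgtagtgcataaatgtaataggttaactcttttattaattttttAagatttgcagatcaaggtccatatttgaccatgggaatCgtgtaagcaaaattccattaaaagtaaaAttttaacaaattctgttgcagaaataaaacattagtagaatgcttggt
*Slc22a30*: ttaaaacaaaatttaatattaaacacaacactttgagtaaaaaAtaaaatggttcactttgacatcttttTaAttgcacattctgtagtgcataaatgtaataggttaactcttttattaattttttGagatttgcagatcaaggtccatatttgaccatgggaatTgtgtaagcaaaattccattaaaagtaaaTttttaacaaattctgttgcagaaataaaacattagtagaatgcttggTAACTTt

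*Abcc4* (MRP4) was higher in the old library at a low level, 12.4 CPM (11.7–13.0) and 19.8 CPM (18.7–20.9), a ratio of 0.68 (95% interval 0.57 to 0.79). It was an early gene, with 26.4 and 50.2 CPM in early and 0.877 and 2.39 CPM in late cells. The difference between the ages was 1.06 in cells with *Xist* and 0.05 in those with Y-linked UMIs, where 8.98 and 9.29 CPM were measured. Of the latter cells 35.9% of young and 51.3% of old ones were late-scored. Taken apart, they had 25.1 and 36.9 CPM of *Abcc4* when early-scored. When late-scored they had 0.496 and 1.27 CPM, from 17 and 29 UMIs. *Abcc2* (MRP2), the export pump of the brush border, had 143 and 145 CPM and was also higher in early cells (-1.004 in the young and -1.52 in the old library). At the other end of the tubule stood *Slco1a1*, a carrier of steroid conjugates and other organic anions, with 3.35 and 1.68 CPM in early and 226 and 221 CPM in late cells, the widest range of any member. Its relative *Slco1a6*, 138798 bases away on chromosome 6, was late to a lesser degree (2.29 in the young and 1.49 in the old library). The basolateral cation carrier *Slc22a2* (OCT2) was late as well (1.46 in the young and 1.36 in the old library). The urate carrier *Slc22a12* (URAT1), the phosphate and urate carriers *Slc17a1* and *Slc17a3* and the orphan cation carrier *Slc22a18* did not pass the limit in both libraries, with ratios between 0.081 and 1.13 in the young library. The 8 members named here after *Abcc4* all lay within 1.5 times between the ages.

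The endocytic receptors *Lrp2* and *Cubn* (cubilin), which bind filtered protein together, followed each other. *Lrp2* had 949 and 803 CPM and *Cubn* 124 and 118 CPM, with age ratios of -0.24 (95% interval -0.26 to -0.23) and -0.072 (95% interval -0.11 to -0.031). Both were higher in early cells, with late over early ratios of -1.03 and -1.20 for *Lrp2* and -1.12 and -1.34 for *Cubn*. *Atp11a*, a flippase that moves phospholipids to the inner leaflet, was a late gene, with 49.8 and 37.2 CPM in early and 365 and 225 CPM in late cells. In all tubule cells it had 212 and 144 CPM (-0.56, 95% interval -0.60 to -0.53).

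Within early and late cells taken apart, 2 members were higher and 3 lower by over 1.5 times in both, where 3.08% and 1.6% of all genes were. The higher ones were *Slc13a1* and *Abcc4*, and the lower ones *Slc34a3*, *Slc22a30* and *Slc7a13*. Within cells with *Xist* and cells with Y-linked UMIs, none was higher in both (2.73% of genes) and 5 were lower in both (1.81%): *Slc34a3*, *Slc5a2*, *Slc37a4*, *Slc5a8* and *Slc22a30*. Early-scored cells with Y-linked UMIs had 794 (young) and 635 CPM (old) of *Slc5a2*, and late-scored ones 64.9 and 72.8 CPM. For *Slc37a4* these values were 240 and 179 CPM, and 154 and 109 CPM. All of these lay within 1.5 times. *Slc5a8* had 5.37 and 3.94 CPM in the early-scored and 168 and 90.0 CPM in the late-scored ones. *Slc34a3* and *Slc22a30* stood on both lists, but each list splits the cells in 1 way only. In early-scored cells with Y-linked UMIs (1142 young and 308 old) *Slc22a30* had 191 and 169 CPM, within 1.5 times. In late-scored ones it had 228 and 145 CPM. *Slc34a3* had 176 and 114 CPM in the former and 6.25 and 2.76 CPM in the latter.

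Cells with Y-linked UMIs and cells with *Xist* differed by over 2 times in 9 members in both libraries. Of the 38, 6 were higher in cells with Y-linked UMIs, where 1.93% of 10647 genes were, and 3 were lower, where 5.27% were. Organic anion and cation carriers, 13 of the 38 members, were 4 of the 6 higher and 2 of the 3 lower ones. *Slc7a13* had 26.0 and 15.4 CPM in cells with *Xist* and 407 and 283 CPM in those with Y-linked UMIs (log2 ratios 3.97 and 4.20). *Slco1a1* had 9.49 and 8.58 CPM and 113 and 136 CPM in the same order, and *Slc22a30* 29.5 and 17.5 CPM and 233 and 150.4 CPM. For each of these 3 genes both values with Y-linked UMIs lay far above both values with *Xist*. Ratios were 2.60 and 1.80 for *Slco1a6*, 2.16 and 1.73 for *Slc22a28* and 2.70 and 2.21 for *Atp11a*. Lower in cells with Y-linked UMIs were *Abcc4* (35.8 and 74.4 CPM with *Xist*, 8.98 and 9.29 CPM with Y-linked UMIs), *Slc7a8* (160.5 and 146 CPM against 53.2 and 23.6 CPM) and *Abcc2* (304 and 354 CPM against 129 and 118 CPM). The median over members was -0.44 and -0.41, beside -0.24 and -0.31 for all genes.

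The 2 kinds of cells also differed in position, since 6.03% of young and 5.99% of old cells with *Xist* were late-scored, against 35.9% and 51.3% of those with Y-linked UMIs. The late genes *Acsm3* and *Ghr* were themselves higher in cells with Y-linked UMIs (log2 ratios 3.57 and 1.19 in the young library), so the score does not place both kinds of cells on equal terms. Within early-scored cells, 3 members remained higher by over 2 times in both libraries (*Slc22a28*, *Slc22a30* and *Slco1a6*) and 1 lower (*Slc6a18*), where 0.714% and 1.38% of genes were, and members under 100 UMIs there were not counted, among them *Slc7a13* and *Slco1a1* in the old library. The ratios within early cells were 2.55 and 3.33 for *Slc22a30*, 2.005 and 1.99 for *Slc22a28*, 2.60 and 2.22 for *Slco1a6* and -2.04 and -2.52 for *Slc6a18*. Within late-scored cells of the old library, *Slc7a13* had 436 CPM with Y-linked UMIs and 171 CPM with *Xist*. *Slco1a1* had 221 and 113 CPM there, and *Slc22a30* 145 and 38.3 CPM, in the same order. The log2 ratios of these 3 genes were 1.35 (95% interval 1.05 to 1.67), 0.97 (0.60 to 1.36) and 1.92 (1.29 to 2.63). Late-scored cells with *Xist* were few, 6.03% of 779 young and 5.99% of 551 old cells with *Xist*. In the young library the largest log2 ratio of the 37 members tested within late cells was 2.31. Conversely, late over early ratios within cells with Y-linked UMIs passed 2 times upward for 8 members in both libraries and downward for 12, where 2.82% and 9.28% of genes did. The 3 distal tubule markers Slc12a3, Calb1 and Pvalb summed to 46.1 and 178 CPM in cells with *Xist* and 6.18 and 14.9 CPM in those with Y-linked UMIs, and their part in these ratios was not tested.

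**Figure D4:**
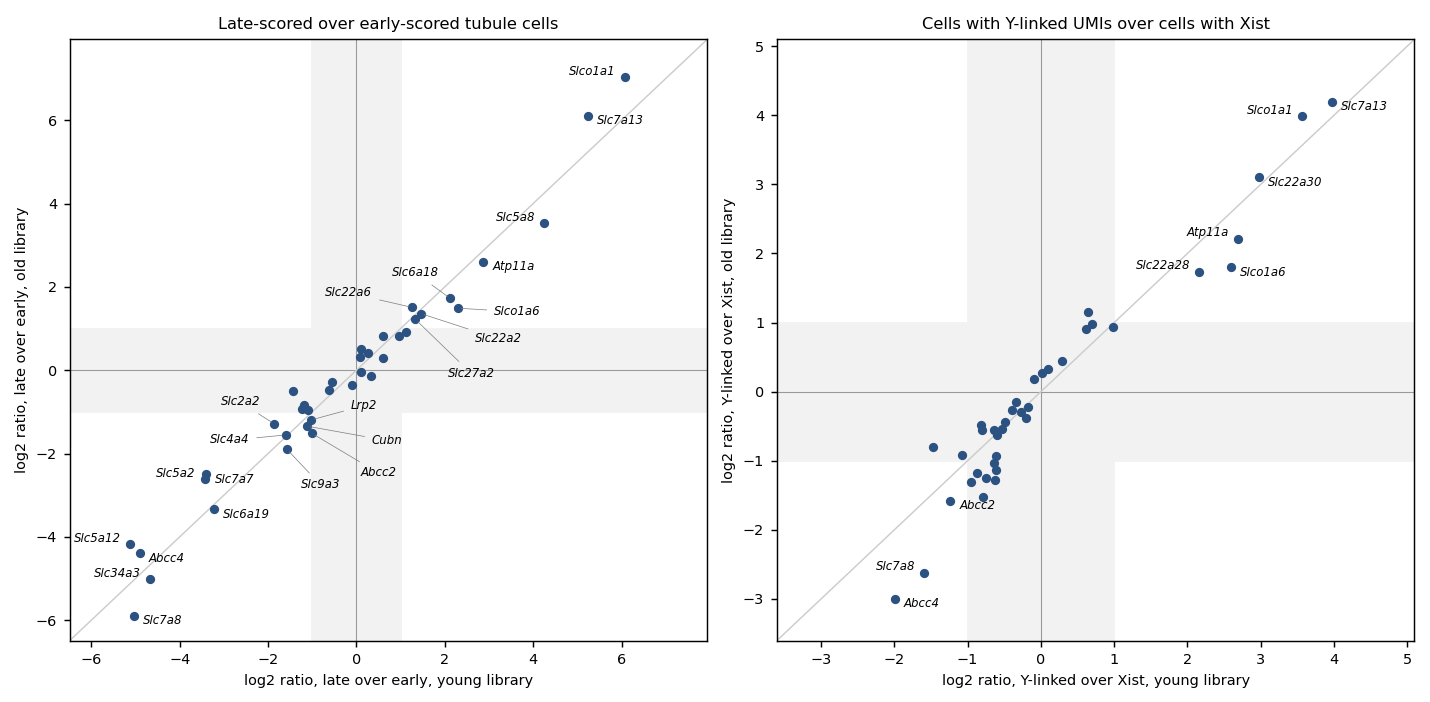
Log2 ratios of the 38 members in the young (horizontal axis) and old library (vertical axis), for late-scored over early-scored tubule cells (left) and cells with Y-linked UMIs over cells with *Xist* (right); bands mark ratios within 2 times, the line marks equal ratios, and members beyond the bands in both libraries are named. On the left 9 named members lie above and 13 below, and on the right 6 lie above and 3 below.

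*Havcr1* (KIM-1), an uptake receptor that injured PT cells make, had UMIs in 218 young and 155 old tubule cells. In the young library these cells had lower levels of 13 members and higher levels of 3 by over 2 times, where 11.9% and 2.85% of genes passed, with a member median of -0.54. The 3 higher ones were the late genes *Slc5a8* (1.16), *Slc6a18* (1.14) and *Slc7a13* (1.39). In the old library 2 were lower and 1, *Atp11a* (1.09), higher, where 3.23% and 2.1% of genes passed, with a median of 0.012. The 2 members lower in both libraries, where 1.59% of genes were, were the early genes *Slc34a3* (-2.38 and -1.37) and *Slc7a8* (-2.95 and -1.66), and none was higher in both (0.302% of genes). Cells with *Havcr1* were deeper (median 34202 and 25372 UMIs) than those without (14472 and 15072 UMIs), and 74.8% and 66.5% of them were late-scored. The part of depth in these ratios was not tested. Within late-scored cells the member median was -0.34 in the young and 0.20 in the old library, beside -0.0056 and 0.10 for all genes. Of 37 members tested there in the young library, 0 were higher and 9 lower by over 2 times. Of 35 tested in the old one, 1 was higher and 0 were lower, so no member was lower in both.

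Member UMIs in leukocytes were examined to see how far the levels above reach beyond the tubule. Leukocytes were barcodes with *Ptprc* and at least 3 of *Laptm5*, *Cd53*, *Coro1a*, *Rac2* and *Lcp1*, 3305 young and 5498 old cells. The median member stood at 23.9% of its tubule level in young and 13.8% in old leukocytes. Of these cells, 526 and 410 also had at least 3 of the 5 tubule genes, and they held 87.3% of the member UMIs of leukocytes in both libraries, with member levels at a median of 67.2% and 67.4% of the tubule level. Those 5 genes are members, so the share of UMIs follows in part from the choice. Over the 33 members outside it the median in these mixed cells was 66.2% and 67.3%. Scrublet called 181 and 175 of them doublets. Without the mixed cells, in the leukocytes called unmixed here, the median was 3.62% and 1.79%, and over the 33 members that the choice of cells did not use 3.71% and 1.88%, beside a tubule share of all UMIs of 76.9% and 53.1%. *Slc13a1*, which is not among the 5, then had 7.998 and 6.52 CPM. After thinning to 2000 UMIs per cell, 1.96% of young and 1.55% of old unmixed leukocytes had a *Slc13a1* UMI, against 48.5% and 60.6% of tubule cells (4.64%, 4.40%, 85.0% and 91.8% without thinning, at medians of 5112, 5447.5, 14847 and 15454.5 UMIs), with 78, 136, 350 and 100 shallower cells left out.

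A few members stood far above this common low level in cells other than tubule. Over all unmixed leukocytes, those at more than 5 times the members' median were *Slc7a8* and *Abcc4* in the young and *Slc7a8*, *Slc7a7*, *Abcc4* and *Atp11a* in the old library, where 85% and 88.7% of all genes were. *Slc7a8* was carried by group 2 innate lymphoid cells (ILC2s, chosen by 2 or more of Gata3, Il1rl1, Il2ra and Il17rb), with 317 CPM (303–330.1; 1158 cells) in the young and 482 CPM (449.8–516; 293 cells) in the old library. Both values lay above its level in tubule cells, 65.0 and 43.0 CPM, and ILC2s were not part of the tubule set, which held no cell with *Ptprc*. *Slc7a7* had 69.1 and 77.9 CPM in macrophages or monocytes (194 and 274 cells), below its tubule level of 148 and 169 CPM, and at most 11.6 CPM in T, B, NK and ILC2 cells. Cells of the loop of Henle (25 young and 45 old cells with Umod and Slc12a1) had 177 and 103 CPM of *Slc9a3*, more than tubule cells with 26.9 and 33.1 CPM. Endothelial cells of the young library (259 cells) had 53.7 CPM of *Aqp1*, 36.3 CPM of *Abcc4* and 47.1 CPM of *Atp11a*, the second above its tubule level of 12.4 CPM. Old neutrophils (92 cells) had 76.8 CPM of *Atp11a*.

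**Figure D5:**
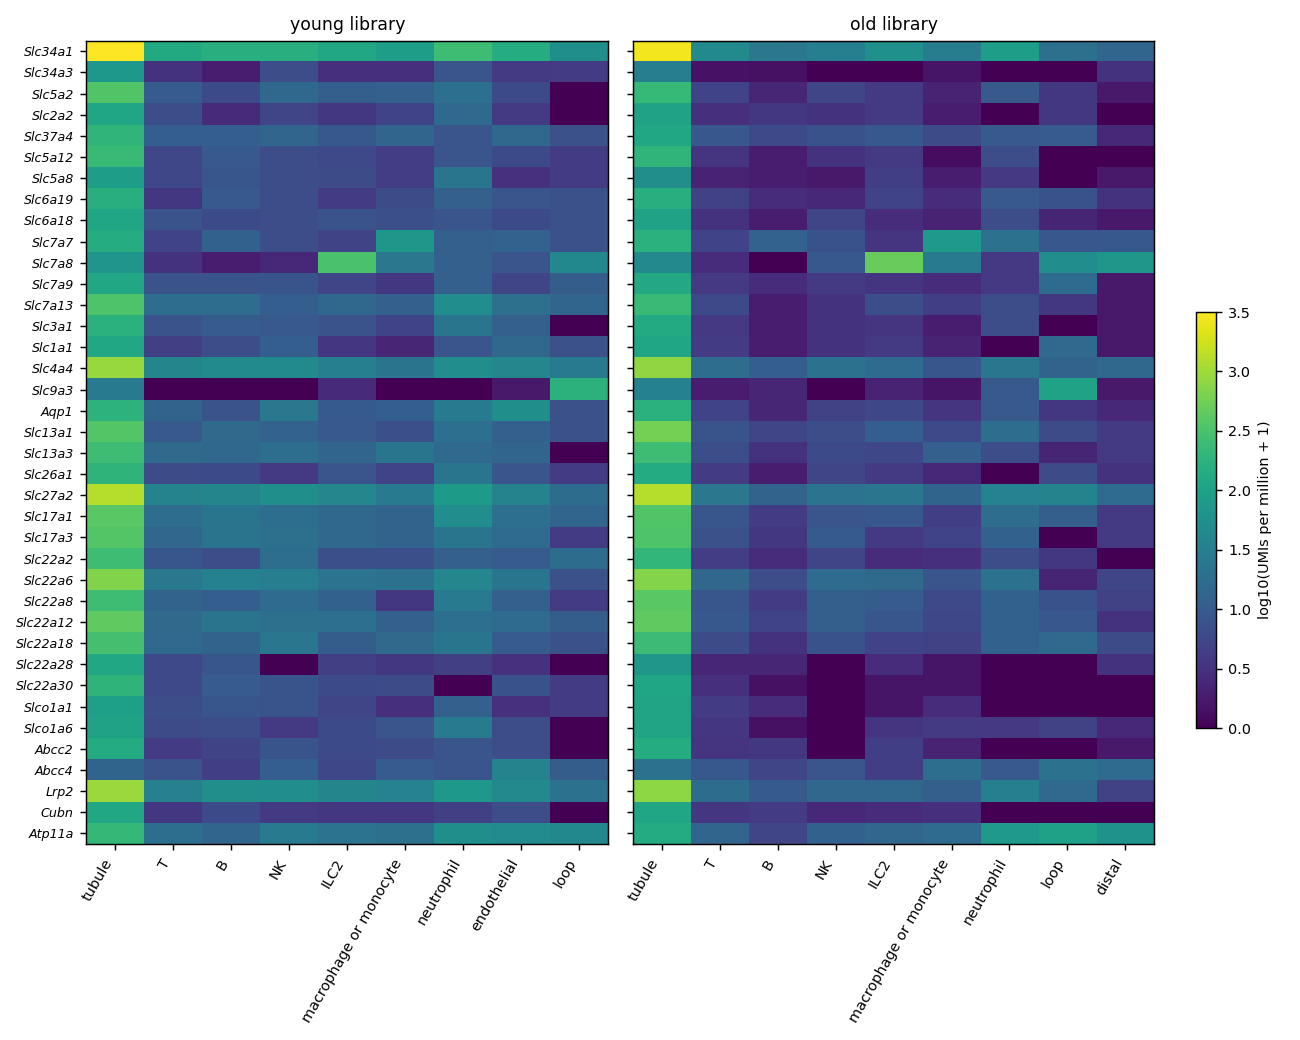
Level of each member, as log10 of CPM plus 1, in tubule cells, unmixed leukocyte classes and other kidney cells of the young (left) and old library (right); classes of fewer than 25 cells are not drawn. Most rows are bright in tubule cells alone, and *Slc7a8* in ILC2s (317 and 482 CPM), *Slc7a7* in macrophages or monocytes and *Slc9a3* in loop cells stand out beside them.

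Other genes of PT transport outside the set were taken from a list of 32 carriers, of which 31 had at least 100 UMIs in tubule cells. Of these, 2 were higher and 13 lower by over 1.5 times in the old library, where 6.22% and 6.59% of all genes were. The median was -0.32 against 0.0051 for all genes. The age values of these carriers are for all tubule cells, and are not given apart for cells with *Xist* and with Y-linked UMIs. The 5 with the largest differences were late genes in the young library. *Slc22a19* went from 28.4 to 1.91 CPM (-3.89), *Slc7a12* from 36.4 to 4.83 CPM (-2.91), and the organic anion carriers *Slc22a7* (OAT2) and *Slc22a13* from 36.6 to 5.05 CPM and from 27.6 to 4.01 CPM. The glutamine carrier *Slc38a3* had 3.01 and 0.190 CPM. In the young library these were higher in late than in early cells, with ratios from 4.61 to 6.98. The 2 that were higher in the old library were the drug efflux pumps *Abcb1a* (2.40 and 3.77 CPM) and *Abcb1b* (4.26 and 8.86 CPM). Lower by less were the mannose and fructose carrier *Slc5a10* (-0.72), the GABA and betaine carrier *Slc6a13* (-0.82), the peptide carrier *Slc15a2* (-0.62), the creatine and carnitine carrier *Slc16a9* (-0.63), the ascorbate carrier *Slc23a1* (-0.73) and its relative *Slc23a3* (-1.18), the nucleoside carrier *Slc28a1* (-1.11) and *Slc22a29* (-0.71). The sodium pump subunit *Atp1b1* (-0.32) lay within the limit.

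Among 11 partners and scaffolds of uptake, 2 were lower by over 1.5 times and none higher, where 6.59% and 6.22% of all genes were. The receptor-associated protein *Lrpap1*, a chaperone of *Lrp2*, went from 483 to 319 CPM (-0.60). *Tmem27* (collectrin), a partner of *Slc6a19*, was 1598 and 1435 CPM. All 9 transcription factors on the list lay within 1.5 times. The ratios of *Hnf4a*, *Hnf4g*, *Nr1h4*, *Ppara*, *Maf*, *Esrra* and *Ppargc1a* ran from -0.18 for *Nr1h4* to 0.25 for *Hnf4g*.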

How the data were processed

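Kidney cells of 1 old and 1 young MRL-*lpr* library (10x Chromium 3′ v3.1) were analysed. The authors aligned reads to mm10 and deposited raw UMI counts per gene and barcode made with Cell Ranger (version 3 per the labels, 3.1.0 per the file headers). The libraries held 156787812 (young) and 126334256 (old) UMIs. The study's cell filter was applied, which drops barcodes under 200 genes or over 20% mitochondrial UMIs. The members and lists were chosen with earlier results of these data known.

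A level is the UMIs of a gene summed over a set of cells per 1000000 UMIs of that set (CPM), with an exact Poisson 95% interval, and log2 ratios have exact binomial intervals. PCR duplicates are removed by the UMIs, and cells are not replicates. With 1 library per age no p-values were computed, and a fold of 1.5 (ages) or 2 (score, *Xist* and *Havcr1*) was used to name genes, on genes with at least 100 UMIs. In leukocytes, members over 5 times the members' median were named. Named are all members, and of the other lists the genes beyond 1.5 times between the ages, but a few genes of those lists, 1 of them beyond 1.5 times, are not reported here. The early genes *Fxyd2*, *Rida* and *Pth1r* had correlations with *Gatm* across tubule cells of -0.14 to 0.21, below those of *Adra1a* and *Spp2* (0.22 to 0.64), and were left out of the score after the data were seen, and the cut into 3 ranges was chosen then too. The shares of cells were thinned to 2000 UMIs with seed 7.

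Analyses used Python 3.11.15 with SciPy 1.17.1, NumPy 2.4.6 and pandas 2.3.3, Biopython 1.88, Scanpy 1.11.5 for Scrublet, and Matplotlib 3.10.9. The ratios and limits were tested on simulated data. Gene positions are those of GENCODE on GRCm38 (mm10) and promoters those of RefSeq on GRCm38.p6, held for 33 of 38 members. The alternatives were other filters, doublets left out, tubule cells by other genes, the mean of each cell's CPM, abundant genes left out of the total, other score genes and cuts, and single kinds of cells.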

Additional observations from a re-analysis of the deposited data

Results flagged for a closer look

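*Slc5a2* had age ratios of opposite sign in early and late tubule cells, with log2 ratios, old over young, of -0.65 and 0.17. The same held for *Slc5a12* (-0.07 and 0.87) and, the other way round, for *Slco1a6* (0.64 and -0.17). Further members changed sign with smaller ratios, among them *Slc2a2* (-0.20 and 0.37), *Slc6a18* (0.16 and -0.24) and *Aqp1* (0.22 and -0.23). The differences between early and late cells were not tested, since each age has 1 library. *Slc5a2* and *Slc5a12* are early genes and had 68.2 and 76.8 CPM and 14.7 and 26.9 CPM in late cells.

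Barcodes left out for few genes or many mitochondrial UMIs also carried the members. Among them 1469 young and 645 old barcodes met the rule for tubule cells, 18.9% and 15.8% of all that did, and members made up 1.65% and 1.54% of their UMIs, beside 1.40% and 1.22% in the tubule cells kept. Their UMIs were 36.7% and 36.6% mitochondrial.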

How the results depend on the processing

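Counts of members and medians were recomputed under each alternative, 110 values in all, of which 91 stayed within 1.5 times of the count or within the counting interval of the median, 17 lay beyond it and 2 changed sign. Of the 10 members beyond 1.5 times between the ages, all 10 kept their direction in each of 9 alternatives, and 3 (*Slc34a3*, *Slc5a8* and *Slc22a30*) also stayed beyond the limit in each. *Slc7a8* was beyond it in 5 of 9, and *Slc22a8* and *Abcc4* had 0.14 and 0.05 in cells with *Xist* and in cells with Y-linked UMIs, respectively. The median old over young was -0.086 with the mean of each cell's CPM and -0.055 with early and late cells weighted equally. With the mean of each cell's CPM, the median for Y-linked over *Xist* was -0.33 (young) and -0.33 (old) and that for *Havcr1* was -0.45 (young) and -0.0023 (old), the latter on the other side of 0 from 0.012. When abundant genes were dropped from the total, the former was -0.50 (young) and -0.50 (old). Within early cells, chosen after the data were seen, it was -0.076 (young) and 0.063 (old), and the *Havcr1* median within late cells was -0.34 (young) and 0.20 (old). The leukocyte median was 3.62 (young) and 1.79 (old) percent without mixed cells, 30.7 (young) and 20.7 (old) with *Ptprc* as the only condition, 10.8 (young) and 8.13 (old) without called doublets, and 12.9 (old) with at most 10% mitochondrial UMIs. The cause was not tested. No paired analysis was possible because each age has 1 library, which also means that the ages cannot be told apart from the libraries.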
